A study of Mus musculus with 15 samples.

Results

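The nuclear genes for the subunits of the mitochondrial respiratory chain were followed in mouse liver. Members were taken by gene symbol, as rows whose names begin with Nduf and a subunit letter and number, Sdha to Sdhd, Uqcr, Cox4 to Cox8 or Atp5, and that reached 150 counts over all libraries. The names matched 84 of 18131 genes in the table, and 79 of these reached the minimum. They were 38 genes named for complex I, 4 for complex II, 8 for complex III, 12 for complex IV and 17 for complex V. All 79 passed the filter on low counts and were tested. The 13 subunits encoded by mitochondrial DNA were not analysed here.

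Poly(A)-selected RNA was sequenced in 15 libraries, and 12 of them formed 4 groups of 3. The mice were male C57BL/6 aged 6 months, either wild type (WT) or labelled Sirt3-/- (labelled knockout, KO), and ate from 6 weeks of age a normal salt diet with 0.4% NaCl (NSD) or a high salt diet with 8% NaCl (HSD). The labels put the length of feeding at 4 months in one field and at 8 weeks in another, and they do not describe the Sirt3 allele. The 3 remaining libraries have no genotype in their titles but are labelled wild type in another field. They form an additional wild-type set, with 1 library on normal salt and 2 on high salt.

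Complex I (NADH dehydrogenase) and complex II (succinate dehydrogenase) pass electrons to ubiquinone, complex III passes them on to cytochrome c, and complex IV reduces oxygen. Complexes I, III and IV pump protons, and complex V, the ATP synthase, uses the gradient to make ATP, on which the liver draws for gluconeogenesis and urea synthesis. SIRT3 is the NAD-dependent deacetylase of the mitochondrial matrix, and several subunits, among them Ndufa9, Sdha and Atp5o, are known substrates, a regulation of the protein that transcript counts do not measure. Transcription of the nuclear subunit genes is known to involve NRF1, the estrogen-related receptors, YY1 and the ETS factor GABP, often with the coactivators PGC-1alpha and PGC-1beta.

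Promoter windows of 250 bases before to 50 bases after an annotated start, from RefSeq on GRCm38.p6, were at hand for 65 of 79 genes. Of these, 5 had a pair of windows. An annotated start need not be the outer end of the gene, and the windows shown for Atp5g3 and Ndufs7 lie inside it. Windows were searched on both strands for GCGCA and GCGC with any 1 base between them (the NRF1 motif), TCAAGGTCA (estrogen-related receptors), the 11 letters in capitals of the Ndufs6 line (YY1), CCGGAAGT (ETS factors) and TATAAA (the TATA box). A gene can hold several of these motifs, and matches were counted without regard to overlap. The NRF1 letters were in 17 of 65 members (26.15%), against 10.97% of 10422 tested genes with a window. The YY1 letters were in 4 members (6.15%), namely Ndufa9, Ndufs4, Ndufs6 and Ndufs7, against 1.71% of tested genes. The receptor letters were in 2 members (3.08%), Atp5g3 and Sdhd, against 0.36%. ETS letters were in 7.69% of members and 8.61% of tested genes, and TATA letters in 7.69% and 9.61%. These matches describe the sequence and are not evidence of binding. The following stretches, one or more per complex, show the matches with up to 20 flanking bases on the strand of the gene, with the matched letters in capitals.
Ndufa6, NRF1 match, chr15:82354242-82354288, minus strand: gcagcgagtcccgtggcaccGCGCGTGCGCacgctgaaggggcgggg
Sdha, NRF1 match, chr13:74350309-74350358, minus strand: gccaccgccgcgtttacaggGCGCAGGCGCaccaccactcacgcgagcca
Uqcrc1, NRF1 match, chr9:108936633-108936682, plus strand: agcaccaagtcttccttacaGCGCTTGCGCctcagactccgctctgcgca
Cox6a1, NRF1 match, chr5:115349091-115349140, minus strand: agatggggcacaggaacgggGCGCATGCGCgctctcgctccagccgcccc
Atp5g3, NRF1 match, chr2:73911285-73911334, minus strand: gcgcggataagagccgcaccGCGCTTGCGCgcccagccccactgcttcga
Atp5g3, receptor match, chr2:73911350-73911398, minus strand: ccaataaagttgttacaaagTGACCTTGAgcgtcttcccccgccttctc
Sdhd, receptor match, chr9:50603800-50603833, minus strand: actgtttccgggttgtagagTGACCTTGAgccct
Ndufs6, YY1 match, chr13:73328433-73328469, minus strand: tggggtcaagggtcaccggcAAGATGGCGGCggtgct
Ndufs7, YY1 match, chr10:80249453-80249498, plus strand: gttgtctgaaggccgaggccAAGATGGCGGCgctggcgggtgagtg
Windows of Cox6c, Uqcrb, Uqcrq, Atp5a1, Atp5mpl, Ndufa2, Ndufa4l2, Sdhc, Cox4i1, Ndufb4c, Ndufs1, Uqcrc2 and Ndufb9 were not analysed here.

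Library totals ran from 15726897 to 19539406 expected counts, and the 79 genes took 0.911% to 1.356% of them. Sirt3 transcript was present in the labelled knockouts, at 50.7 ± 12.2 CPM (counts scaled to a common library size by TMM over the 15 libraries; SD, n = 3) on normal salt against 51.9 ± 1.85 CPM in wild type, and at 62.7 ± 6.07 against 71.8 ± 10.5 CPM on high salt, so the counts do not check the genotype labels. Although all mice are labelled male, the Y-linked gene Ddx3y had 0 to 3.92 counts in KO NSD 1 and KO NSD 3 and 380.99 to 936.16 in the other 13 libraries. The summed level of 6 hepatocyte markers was 100700 to 161000 CPM in every library, and the brown fat gene Ucp1 was at 0 in all. The summed level of 6 neutrophil markers was 53.1 to 140.5 CPM in KO NSD against 8.90 to 18.2 in WT NSD, and that of 6 macrophage markers 162.2 to 413.2 against 80.9 to 118.5. On high salt the neutrophil markers summed to 21.0 to 46.2 CPM in KO HSD against 9.23 to 12.9 in WT HSD. The 4 stellate cell markers summed to 84.6 to 113.6 CPM in KO HSD, against 137.7 to 227.5 in KO NSD and 134.0 to 225.7 in WT HSD. The adipose markers summed to 69.0 CPM in the additional normal salt library, of which the single gene Cfd made 52.1 CPM. They summed to 1.58 and 1.75 CPM in the additional high salt libraries and to 2.25 to 11.1 CPM in the titled groups. The part of these in any result was not tested, and in whole liver fewer cells of a type and less RNA per cell cannot be told apart.

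Levels of different genes were compared as FPKM (fragments scaled to transcript length and library total), averaged over the 15 libraries. The median member of complex IV stood at 356.5 FPKM, that of complex V at 250.2, complex III at 213.1, complex II at 127.5 and complex I at 100.6. The ranges of single genes overlapped widely between the complexes, so these medians order the complexes and not their genes. Within complex II, whose 4 genes encode one copy each of the enzyme, the highest and the lowest mean lay within 1.98-fold. The genes named for complex I spanned 226.1-fold, from Ndufa4l2 to Ndufa4, whose protein is now placed in complex IV. Leaving out both, the complex I means ran from 19.8 FPKM for Ndufa11 to 306.4 FPKM for Ndufb9.

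**Figure D1:**
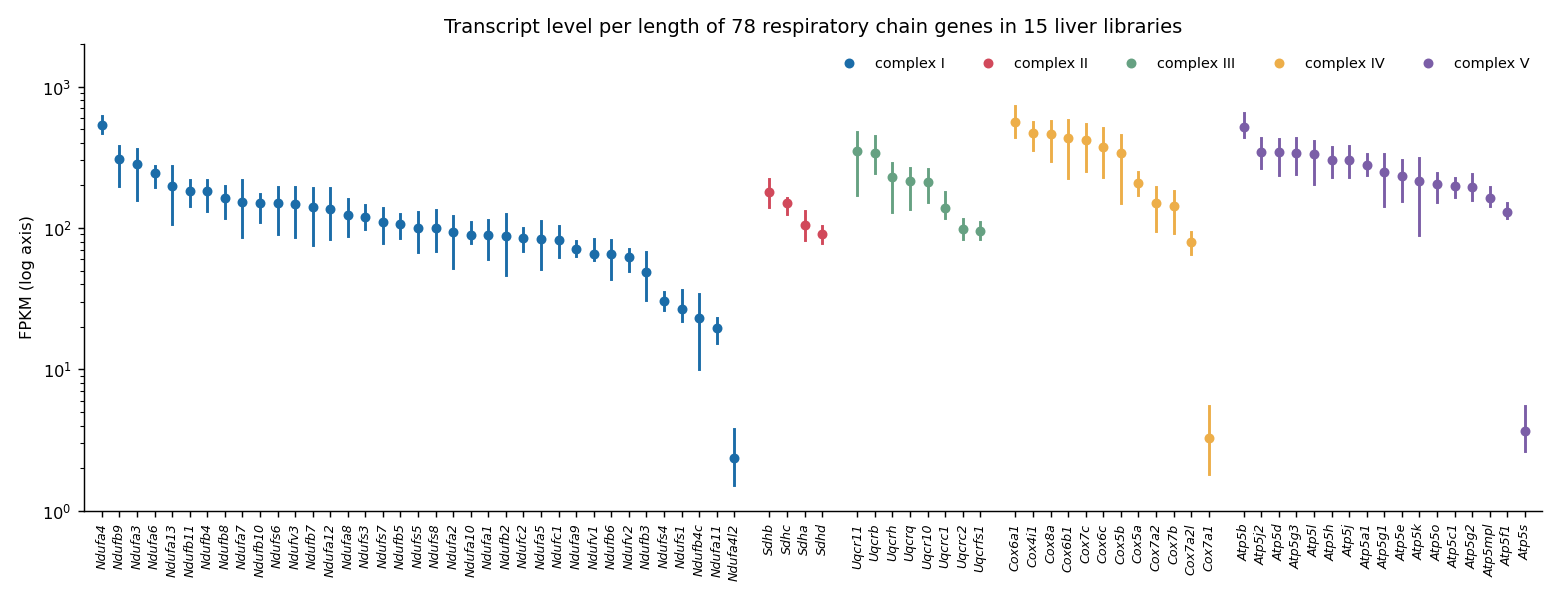
FPKM on a log axis for 78 of the 79 genes, ordered within each complex, with points at the mean over 15 libraries and lines from the lowest to the highest library. Ndufa4l2, Cox7a1 and Atp5s lie lowest at 2.35, 3.27 and 3.69 FPKM. The means of the other genes plotted run from 19.8 FPKM for Ndufa11 to 562.9 FPKM for Cox6a1.

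Among complex I genes the highest were Ndufa4 at 532.4 FPKM, with libraries from 469.3 to 615.9, and Ndufb9, an accessory subunit of the membrane arm, at 306.4 FPKM. Ndufa4 was named as a complex I gene, but its protein is now placed in complex IV. Core subunits of the electron path were lower. Ndufv1, which binds NADH and FMN, averaged 65.8 FPKM, and Ndufs1, which carries iron-sulfur clusters, 26.6 FPKM. Ndufa9, an accessory subunit near the ubiquinone site, averaged 70.9 FPKM.

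In complex II, the iron-sulfur subunit Sdhb led at 179.0 FPKM, followed by the membrane anchor Sdhc at 149.4, the flavoprotein Sdha at 105.6 and the other anchor Sdhd at 90.5 FPKM. The library ranges of Sdha, 82.5 to 131.2 FPKM, and Sdhd, 77.9 to 102.9, overlapped. In complex III the small subunits Uqcr11 and Uqcrb were highest, at 350.4 and 341.2 FPKM. The core proteins Uqcrc1 and Uqcrc2 averaged 137.6 and 98.8 FPKM, and the Rieske iron-sulfur protein Uqcrfs1 was lowest at 95.6 FPKM, a range of 83.1 to 111.0 that overlapped that of Uqcrc2.

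In complex IV, Cox6a1, the form made in liver, averaged 562.9 FPKM and Cox4i1, which takes part in the control of the enzyme by ATP, 468.2 FPKM, followed by the small membrane subunit Cox8a at 460.6. Cox5b, a zinc-binding subunit, averaged 338.0 FPKM and Cox5a 207.2. In complex V the catalytic beta subunit Atp5b averaged 513.4 FPKM, the membrane subunit f, Atp5j2, 346.6, the alpha subunit Atp5a1 280.4, and Atp5o (the stalk protein OSCP) 204.6 FPKM. The identical c-ring protein is made from 3 genes, and on the FPKM scale Atp5g3 took 43.1% of their sum, Atp5g1 31.7% and Atp5g2 25.2%. The share of Atp5g3 ranged from 37.1% in KO NSD 1 to 46.6% in the additional normal salt library, and it was the largest share of the mean.

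Several complex IV subunits have forms made mainly in heart and skeletal muscle or under low oxygen, and these were scarce. Cox7a1, the muscle form, averaged 3.27 FPKM, 45.9-fold below the liver form Cox7a2 at 150.2 FPKM. Cox4i2, Cox6a2 and Cox8b had 26, 23 and 11 counts in all 15 libraries, and Cox6b2, the testis form, had 84. These 4 and Ndufb4b, with 6.73 counts, matched by name but fell under the minimum. The members just inside it were Cox7a1 with 313 counts and Ndufa4l2 with 632. Ndufa4l2, known as a target of hypoxia-inducible factor, averaged 2.35 FPKM, 226.1-fold below Ndufa4. Heart markers summed to 0.0497 to 4.23 CPM and skeletal muscle markers to 0.373 to 2.95 CPM.

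Some rows matched by name without being plain subunits. Cox7a2l, at 79.4 FPKM, is known for a factor that can join complexes III and IV into supercomplexes. Whether the allele of the mouse strain used here encodes a working form of that factor was not tested. The Cox7a2l values are therefore read as transcript levels only. Atp5s, at 3.69 FPKM, is named Dmac2l in RefSeq and is not counted among the structural subunits of the ATP synthase. Ndufb4c, at 22.9 FPKM, is a copy of Ndufb4, at 181.8 FPKM. RSEM divides reads that fit both copies, so the values of Ndufb4c and Ndufb4 are uncertain.

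The 79 genes moved together from library to library, and they did so within groups. For each gene the deviation of its log2 CPM from its own mean over 15 libraries was taken, and the median of the 79 deviations was read per library. In WT NSD 1, 2 and 3 this median was 0.25, 0.092 and -0.35. In WT HSD 1, 2 and 3 it was 0.29, 0.37 and -0.37. In each wild-type group the library numbered 3 therefore stood well below the other two. In the KO NSD libraries the median was 0.091, 0.058 and 0.026, and in the KO HSD libraries -0.062, 0.24 and 0.13. The 3 additional libraries spread the widest, with the normal salt library at 0.27 and the high salt libraries at -0.31 and -0.75. Every one of the 79 genes was above its own mean in the additional normal salt library, and every one was below it in the second additional high salt library. The median over all genes tested stayed between -0.012 and 0.032 in every library.

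**Figure D2:**
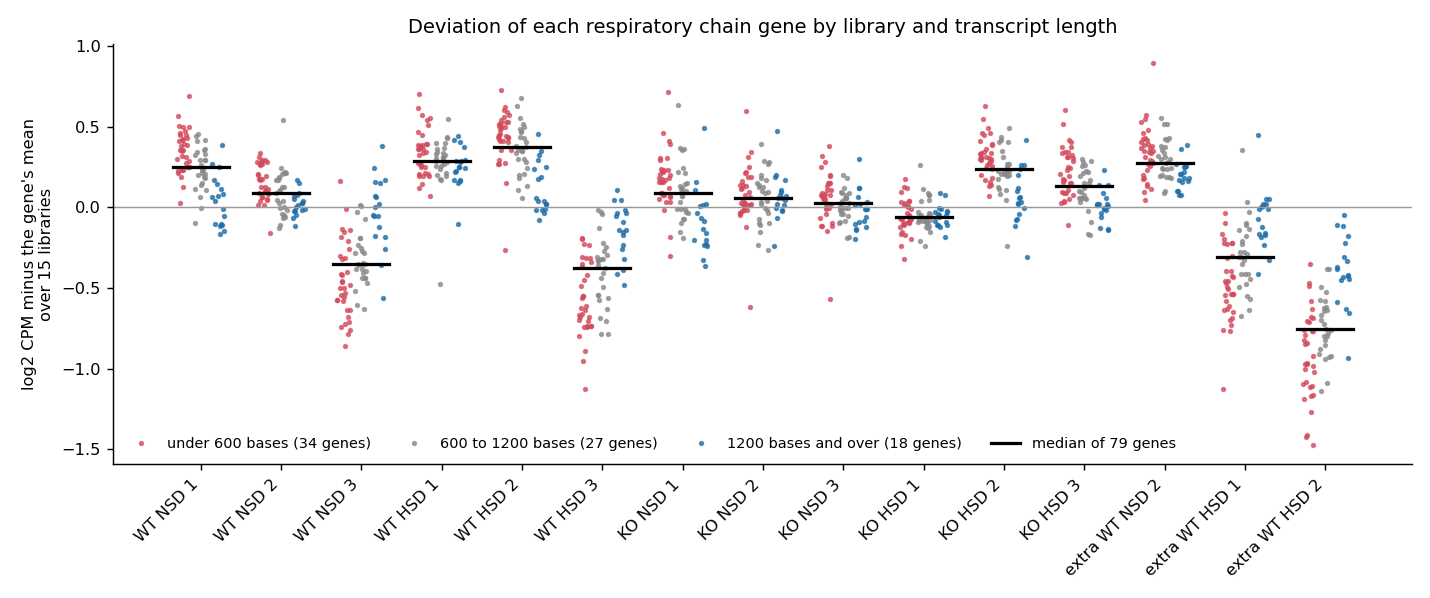
Deviation of log2 CPM from the gene's own mean over 15 libraries, for each of 79 genes in each library, with genes separated by transcript length and a black line at the median of all 79. WT NSD 3, WT HSD 3 and both additional high salt libraries fall below 0 at -0.35, -0.37, -0.31 and -0.75, and the short transcripts lie lowest there.

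The complexes shifted to unequal degree. In WT HSD 3 the complex medians were -0.43 for complex I, -0.11 for complex II, -0.40 for complex III, -0.49 for complex IV and -0.32 for complex V. In WT NSD 3 complex IV stood at -0.45 and complex II at -0.004. Complex II was the least displaced of the 5 in both libraries. In the additional high salt libraries complex II stood at -0.013 and -0.43, and complex IV at -0.44 and -0.92.

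Single genes varied accordingly. The SD of log2 CPM over 15 libraries was 0.73 for Atp5k, a small membrane subunit of the ATP synthase, 0.64 for Cox5b, 0.59 for Uqcr11 and 0.59 for Cox6b1. Among its lowest values were 0.12 for Uqcrc2 and 0.14 for Atp5a1. Atp5k in wild type stood at 70.7, 66.2 and 31.7 CPM on normal salt, at 85.5, 75.7 and 24.0 CPM on high salt, and at 76.7 CPM on normal salt against 24.0 and 18.8 CPM on high salt in the additional set. Its KO NSD values were 61.6, 59.6 and 68.4 CPM and its KO HSD values 53.6, 76.8 and 74.9 CPM. The low Atp5k values were thus in WT NSD 3, WT HSD 3 and both additional high salt libraries. Cox5b followed the same libraries, with wild-type values of 242.3, 201.6 and 101.3 CPM on normal salt and 259.7, 254.7 and 90.3 CPM on high salt. Atp5b, by contrast, read 895.6, 982.6 and 1010 CPM in wild type on normal salt and 1274, 955.3 and 941.7 CPM on high salt, with neither library numbered 3 apart from the rest.

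Shorter members tended to vary more between libraries, with exceptions. Atp5mpl, at 342 bases, had an SD of 0.19, and Uqcrq, at 1520 bases, one of 0.39. The length implied by the deposited counts and FPKM had a median of 661 bases over the 79 genes, against 2843 bases over 12649 genes with at least 150 counts. The 34 members under 600 bases had a median SD of 0.46 over the 15 libraries, the 27 members from 600 to 1200 bases 0.33, and the 18 longer members 0.17. All genes tested gave 0.46, 0.37 and 0.35 in the same length classes. In WT HSD 3 the median deviation was -0.62, -0.36 and -0.14 for short, middle and long members, and -0.51, -0.34 and 0.059 for all genes of those lengths. Each library's FPKM summed over all genes moved with these shifts. Because FPKM divides by transcript length, a library with fewer counts on short transcripts has a lower sum by construction. The sums are therefore not a measure independent of these shifts. The 6 libraries with the lowest sums, from 557556.5 in the second additional high salt library to 600829.8 in KO NSD 3, were also the 6 with the lowest medians of the 79 genes, and in the same order. Over all 15 libraries the 79 genes made up 1.95% to 2.69% of the summed FPKM. The part of transcript length and of the summed FPKM in the comparisons was not tested beyond the fits named with them.

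Which genes differed by diet or genotype was asked with edgeR's quasi-likelihood test over 13051 genes in the 12 libraries of the 4 groups, with Benjamini-Hochberg adjustment. Of the 79 genes, 0 had an adjusted p under 0.05 in any of 7 comparisons. DESeq2, limma-voom and limma on log2 FPKM also called 0 of the 79, and the exception among all fits was Atp5s in an edgeR fit with a covariate, given with that gene. Because the labels do not say whether libraries come from separate animals, the p-values cover the spread among libraries alone, part or all of which may be technical. An exact permutation test of a single gene with 3 against 3 libraries has 0.1 as its smallest p. A p that misses the threshold does not show that levels were equal, and the median standard error of a member's log2 fold change was 0.22 between 2 groups.

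High salt in wild type gave most of the 79 genes values slightly above 0, and called none. Log2 fold changes of WT HSD against WT NSD had a median of 0.083 over the 79 genes, with 69 above 0, beside 0.018 over all genes tested, with 7008 of 13051 above 0. The share of all genes called was 0%, and at an unadjusted p under 0.05 there were 0 members against 4.47% of all genes. In 0 of the 79 genes did the groups not overlap, against 8.69% of all genes. The complex medians ran from 0.051 for complexes I and II to 0.15 for complex IV, in which 11 of 12 genes were above 0. Summed over the 79 genes, the level was 12358.2 ± 2799.8 CPM in WT HSD and 11565.2 ± 1627.5 CPM in WT NSD (SD, n = 3), a difference smaller than the spread within either group. The median turned to -0.081 without WT NSD 3, to -0.022 without WT HSD 1 and to -0.046 without WT HSD 2, and was 0.30 without WT HSD 3.

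In that comparison 0 of the 79 genes had an unadjusted p under 0.05, and the 3 higher and 3 lower genes with the smallest p were as follows. Ndufb4c stood at 10.3, 10.2 and 7.58 CPM on normal salt and at 14.5, 16.8 and 7.41 CPM on high salt, a log2 fold change of 0.46 ± 0.27 (SE; edgeR adjusted p = 0.9997). Its HSD libraries 1 and 2 were above every NSD library and HSD 3 was below them all. Cox6a1 differed by 0.24 ± 0.21 and Ndufc2, an accessory subunit of the membrane arm of complex I, by 0.18 ± 0.14. The lower genes with the smallest p were Ndufa4l2, at -0.20 ± 0.42, Atp5mpl, a small membrane subunit of the ATP synthase, at -0.057 ± 0.16, and Cox7a1 at -0.11 ± 0.48.

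High salt in the labelled knockout gave a median of 0.042 over the 79 genes, with 55 above 0, beside -0.002 over all genes. The share of all genes called was 0%, and 1 member, Atp5s, had an unadjusted p under 0.05, against 8.05% of all genes. The groups did not overlap for 4 members, against 11.7% of all genes, with Sdha, Sdhc and Cox7a2l higher on high salt and Atp5s lower. Cox7a2l stood at 84.1, 76.2 and 74.4 CPM in KO NSD and at 101.5, 97.8 and 88.0 CPM in KO HSD. All 3 high salt values of Cox7a2l were above the normal salt values, with a log2 fold change of 0.29 ± 0.15 (SE; edgeR adjusted p = 0.6772). Sdha differed by 0.19 ± 0.15 and Ndufa4 by 0.17 ± 0.18, while Ndufb4c differed by -0.23 ± 0.26 and Atp5g2 by -0.069 ± 0.17. All 12 complex IV genes were above 0, with a median of 0.093, and the median of complex V was -0.014. Without KO HSD 2 the median of the 79 turned to -0.018.

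**Figure D3:**
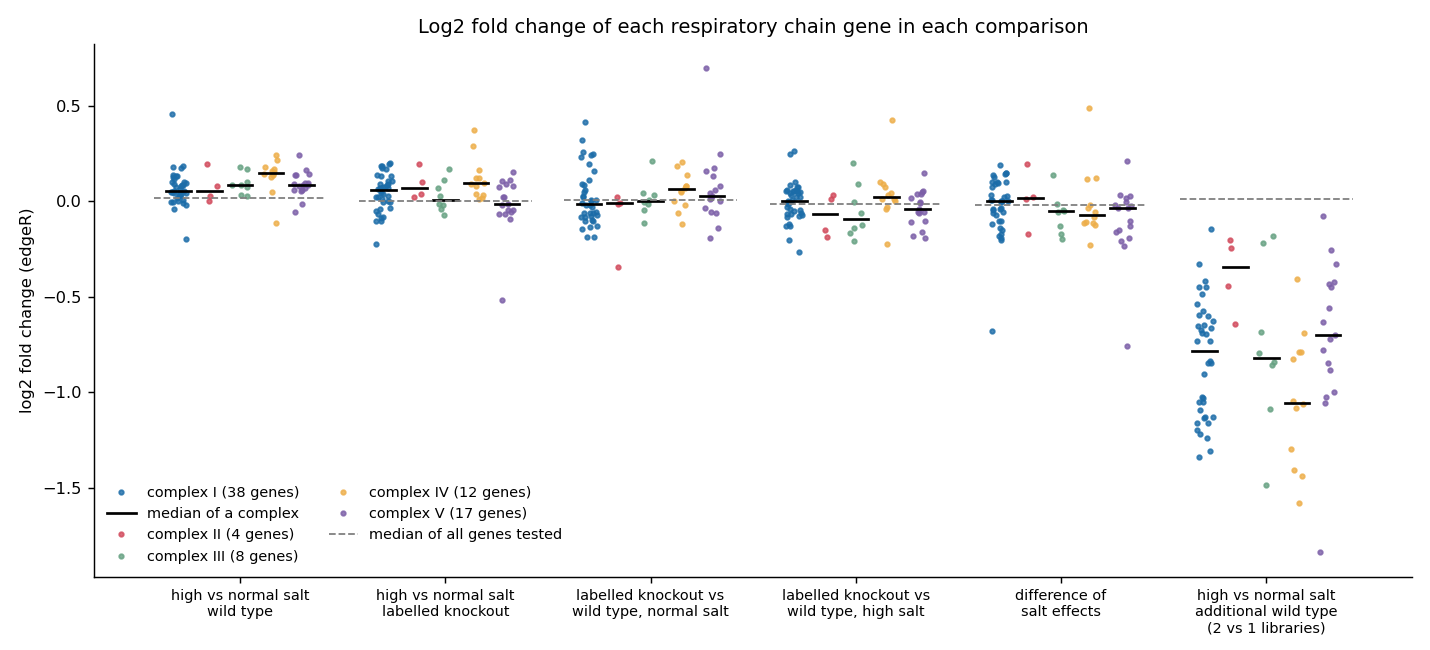
Log2 fold change from edgeR for each of the 79 genes in 6 comparisons, coloured by complex, with a black line at the median of each complex and a dashed line at the median of all genes tested. In the first 5 comparisons the genes cluster around 0, and in the additional wild-type set all 79 lie below it.

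Labelled knockout against wild type on normal salt was one of the comparisons in which genes outside the respiratory chain were called, 0.414% of all genes tested, with 0 of the 79 among them. The median over the 79 genes was 0.004, with 44 above 0, beside 0.008 over all genes. An unadjusted p under 0.05 was found for 2 members, Atp5s and Sdha, against 14.3% of all genes. In 4 members the groups did not overlap, against 19.5% of all genes, with Ndufb4c and Atp5s higher in the labelled knockout and Sdha and Atp5c1 lower. Without KO NSD 1 and KO NSD 3, the libraries with few Y-linked counts, the median was 0.008. It turned to -0.14 without WT NSD 3, to -0.023 without KO NSD 1, and to -0.021 without WT HSD 3 or KO HSD 1.

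Atp5s, the row that is not a structural subunit, had the smallest p of the 79 genes there. It stood at 5.14, 5.27 and 3.85 CPM in WT NSD and at 8.05, 7.93 and 7.04 CPM in KO NSD. The log2 fold change was 0.70 ± 0.21 (SE; edgeR adjusted p = 0.1328), and all 3 labelled knockout libraries were above all 3 wild-type libraries. On high salt the values were 5.30, 6.81 and 4.75 CPM in wild type and 5.25, 4.59 and 6.28 CPM in the labelled knockout, and these groups overlapped. High salt against normal salt in the labelled knockout gave -0.52 ± 0.21 (edgeR adjusted p = 0.5498), and the difference between the salt effects was -0.76 ± 0.30 (edgeR adjusted p = 0.8411). With the log2 of each library's summed FPKM as a covariate in edgeR, the normal salt comparison of Atp5s gave 0.80 ± 0.17 and an adjusted p of 0.04182. In that fit 14 members had an unadjusted p under 0.05 and the median of the 79 was 0.19. The share of all genes under that p in it is not given here, so the 14 are not read as a result about the members. Calls over all genes with the covariate are given with the dependence on processing. As stated above, the summed FPKM is not independent of the shifts between libraries.

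Sdha, the flavoprotein that oxidises succinate, had the smallest p among the genes that were lower. Its values were 291.7, 335.6 and 358.1 CPM in wild type and 241.4, 256.8 and 275.5 CPM in the labelled knockout, with no overlap. The log2 fold change was -0.34 ± 0.15 (SE; edgeR adjusted p = 0.3252). On high salt Sdha read 370.3, 286.4 and 326.4 CPM in wild type and 302.1, 286.1 and 299.0 CPM in the labelled knockout, and the groups overlapped. The other complex II genes gave log2 fold changes of -0.015 ± 0.19 for Sdhb, -0.0082 ± 0.14 for Sdhc and 0.022 ± 0.15 for Sdhd, and whether they differ from Sdha was not tested. Atp5c1, the gamma subunit in the rotor of the ATP synthase, averaged 242.4 ± 20.2 CPM in wild type and 218.7 ± 7.16 CPM in the labelled knockout. Ndufa12, an accessory subunit of complex I, differed by 0.32 ± 0.30, Atp5mpl by -0.19 ± 0.16 and Ndufs1 by -0.19 ± 0.17.

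**Figure D4:**
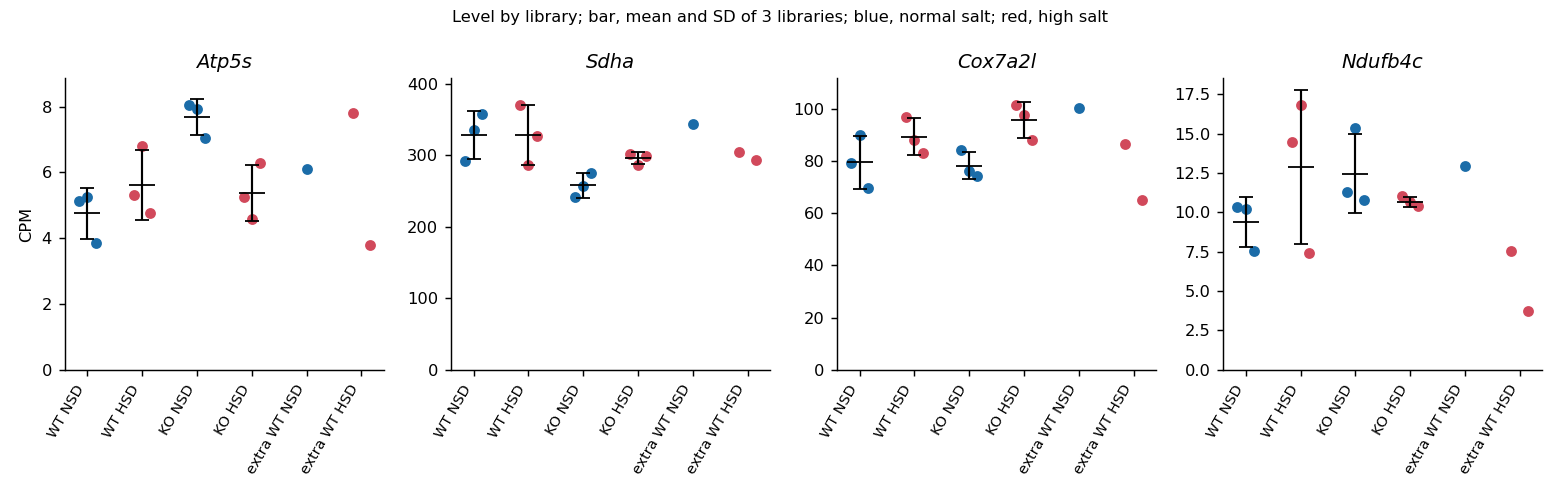
CPM of Atp5s, Sdha, Cox7a2l and Ndufb4c in each of 15 libraries by group, with the mean and SD where a group has 3 libraries. Atp5s is above and Sdha below the wild type in all 3 KO NSD libraries, and the high salt groups of both overlap.

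On high salt, labelled knockout against wild type gave a median of -0.004, with 38 of 79 genes above 0, beside -0.015 over all genes. The share of all genes called was 0%, and 0 members had an unadjusted p under 0.05, against 4.62% of all genes. Uqcrc2, a core protein of complex III, was the 1 member whose groups did not overlap, against 8.03% of all genes. It stood at 208.7, 188.2 and 192.0 CPM in WT HSD and at 179.5, 176.6 and 168.8 CPM in KO HSD, a log2 fold change of -0.17 ± 0.14 (SE; edgeR adjusted p = 0.9998). On normal salt the Uqcrc2 values overlapped, at 194.3, 177.0 and 206.5 CPM in wild type and 158.7, 194.8 and 178.2 CPM in the labelled knockout. Ndufa10, an accessory subunit of complex I, differed by -0.20 ± 0.15 and Atp5c1 by -0.18 ± 0.15, whereas Cox7a1 differed by 0.42 ± 0.48, Ndufa12 by 0.26 ± 0.30 and Ndufa2 by 0.25 ± 0.29. The median lay between -0.22 without WT HSD 3 and 0.12 without WT HSD 2, and it was also above 0 without WT HSD 1, at 0.089, and without KO HSD 1, at 0.073.

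The difference between the salt effects of the labelled genotypes had a median of -0.039 over the 79 genes, beside -0.022 over all genes, with a median standard error of 0.31. The share of all genes called was 0%, and 1 member, Atp5s, had an unadjusted p under 0.05, against 5.41% of all genes. After Atp5s the smallest p belonged to Ndufb4c at -0.68 ± 0.37 and Ndufc2 at -0.19 ± 0.20 among the lower genes, and to Atp5mpl at 0.21 ± 0.22, Sdha at 0.19 ± 0.21 and Ndufs4 at 0.19 ± 0.26 among the higher. Ndufs4 is an accessory subunit needed for the assembly of complex I. Without WT NSD 3 the median turned to 0.14, without WT HSD 2 to 0.11, without KO HSD 1 to 0.092, without WT HSD 1 to 0.045 and without KO NSD 1 to 0.009.

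Each factor was also averaged over the other. Salt averaged over both genotypes gave a median of 0.069, with 70 of 79 genes above 0, beside 0.003 over all genes, and the share of all genes called was 0%. One-at-a-time removal of libraries left this median between 0.010 and 0.18. Cox7a2l was the 1 member with an unadjusted p under 0.05, against 6.11% of all genes, and differed by 0.23 ± 0.10 (SE; edgeR adjusted p = 0.8139). Its wild-type values, 79.1, 90 and 69.6 CPM on normal salt and 96.9, 88.0 and 83.0 CPM on high salt, overlapped. Ndufs3, a core subunit of complex I, differed by 0.14 ± 0.14 and Cox7b, a small subunit of complex IV, by 0.15 ± 0.16. Genotype averaged over both diets gave a median of 0.010, beside -0.004 over all genes, and called 0.873% of all genes with 0 of the 79. Sdha was the 1 member with an unadjusted p under 0.05, against 13.5% of all genes, at -0.25 ± 0.11 (edgeR adjusted p = 0.3347). The median turned to -0.12 without WT HSD 3 and to -0.085 without WT NSD 3, and leaving out KO NSD 1, 2 or 3 or KO HSD 2 or 3 gave -0.023 to -0.002.

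In the additional wild-type set, the 79 genes were lower on high salt in value, and none passed the adjusted threshold. Its 2 high salt libraries against its 1 normal salt library were tested with edgeR in a fit of all 15 libraries, in which the spread of the lone library was taken from the other groups. All 79 genes had a log2 fold change below 0, with a median of -0.79 and a range from -1.84 to -0.076, beside a median of 0.011 over all genes tested. At an unadjusted p under 0.05 there were 51 of the 79 genes, against 12.1% of all genes, but 0 passed the adjusted threshold, which 0.0216% of 13864 genes passed. In 78 of 79 genes both high salt libraries were below the normal salt library, as in 38.9% of all genes, and the exception was Atp5s, at 6.12 CPM against 7.82 and 3.79 CPM.

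Complex IV had the lowest median there at -1.06 and complex II the least low at -0.35, with complex I at -0.78, complex III at -0.82 and complex V at -0.70. The smallest p-values belonged to Atp5k at -1.84 ± 0.56, Cox7a2 at -1.30 ± 0.41 and Atp5g3 at -1.06 ± 0.34 (SE; edgeR adjusted p = 0.4116 for each). Cox4i1 stood at 410.8 CPM on normal salt and at 269.1 and 205.7 CPM on high salt, so the second high salt library was the lower. Without that library the median over the 79 genes was -0.59, and without the first it was -0.997. The summed FPKM of all genes was 705397.7 in the normal salt library and 574471.9 and 557556.5 in the high salt libraries, the widest gap in the series.

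Short genes were again the lowest. In the additional set the median was -1.06 for the 34 members under 600 bases, -0.79 for those up to 1200 bases and -0.43 for the 18 longer ones. All genes tested of the same lengths stood at -0.82, -0.49 and 0.075. Sdha and Ndufs1, with implied lengths of 2893 and 2722 bases, differed by -0.20 and -0.15, and Atp5b by -0.43. The direct difference between the salt effects of the additional and the titled wild type had a median of -0.88 over the 79 genes and 0.008 over all genes. It had an unadjusted p under 0.05 for 44 members, against 13% of all genes, and an adjusted p under 0.05 for 0 members and 0% of all genes in edgeR. Its smallest adjusted p among the members was 0.365, and the smallest unadjusted p belonged to Ndufb4c at -1.65 ± 0.53, Atp5g3 at -1.20 ± 0.41 and Cox7a2 at -1.44 ± 0.50. Both sets of wild-type libraries thus gave medians of opposite sign, 0.083 and -0.79, and with all 9 wild-type libraries in a fit with the set as a covariate the median was -0.19 with 0 members called.

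**Figure D5:**
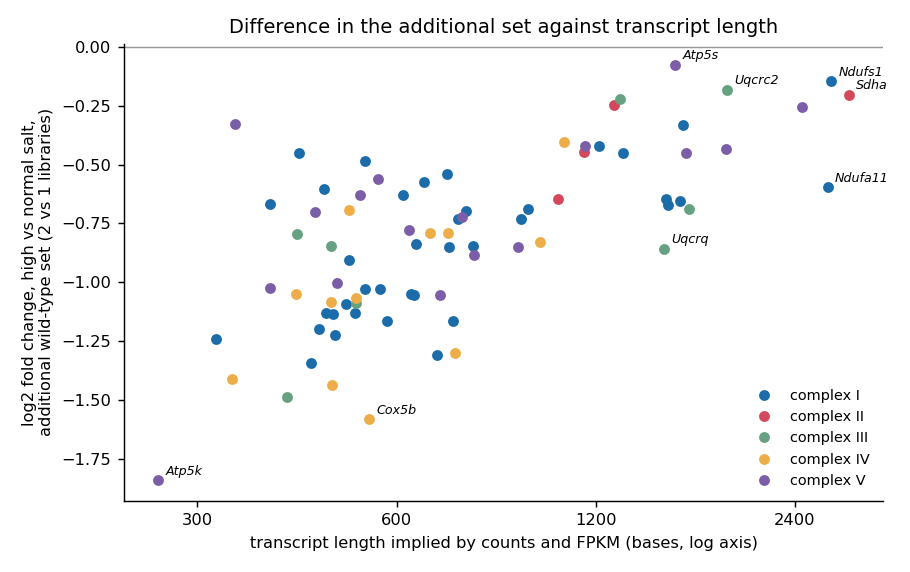
Log2 fold change of high against normal salt in the additional wild-type set (2 against 1 libraries) for each of the 79 genes, against the transcript length implied by counts and FPKM on a log axis. All points lie below 0, the shortest transcript, Atp5k, is lowest at -1.84, and Sdha and Ndufs1 at the long end lie at -0.20 and -0.15.

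Genes that build, feed and control the chain were read from separate lists. Of 16 assembly factors of complex I and 32 of complexes II to V, 0 had an adjusted p under 0.05 in edgeR in any of the comparisons above, where the share of all genes called was at most 0.873%. The same count, 0, held for 13 genes of the TCA cycle, 78 mitochondrial ribosomal proteins, 80 cytosolic ribosomal proteins and 18 regulators. In the additional set the cytosolic ribosomal proteins had a median of -0.70 and the mitochondrial ones -0.52, while the regulators stood at 0.20. Among the titled groups, high salt in wild type gave 0.073 for the cytosolic and 0.082 for the mitochondrial ribosomal proteins, near the 0.083 of the 79 genes.

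Of 16 electron carriers and related genes, 1 was called, Coq8a, an atypical kinase needed for ubiquinone synthesis. It stood at 625.7, 483.8 and 404.6 CPM in WT NSD and at 111.0, 156.6 and 180.0 CPM in KO NSD, a log2 fold change of -1.75 ± 0.27 (SE; edgeR adjusted p = 0.0237), in a comparison that called 0.414% of all genes. KO NSD 1 and KO NSD 3, at 111.0 and 180.0 CPM, are the libraries with few Y-linked counts although labelled male. A fit without both was run, but it leaves KO NSD 2, at 156.6 CPM, alone in its group. The part of this mismatch in the call was therefore not tested. On high salt Coq8a read 221.7, 203.8 and 359.8 CPM in wild type and 199.0, 169.7 and 234.4 CPM in the labelled knockout, which overlapped, with a log2 fold change of -0.38 (edgeR adjusted p = 0.9998). The additional wild-type library on normal salt read 201.4 CPM, below all 3 WT NSD libraries. Averaged over diets, where 0.873% of all genes were called, Coq8a was called at -1.07 ± 0.19 (edgeR adjusted p = 0.03524).

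The transcription factors whose motifs were searched were measured as well. Esrra, the estrogen-related receptor alpha, stood at 19.7, 21.1 and 19.5 CPM in WT NSD and at 34.5, 27.9 and 24.8 CPM in KO NSD, with no overlap, as in 19.5% of all genes, and a log2 fold change of 0.54 ± 0.18 (SE; edgeR adjusted p = 0.1559). The additional wild-type library on normal salt read 34.4 CPM of Esrra, about as high as the highest KO NSD library, and on high salt the genotypes differed by -0.097 ± 0.17. In the same comparison Atp5g3 and Sdhd, the members with the receptor letters, differed by 0.13 ± 0.24 and 0.022 ± 0.15, neither beyond its error. Gabpa, the DNA-binding subunit of GABP, stood in wild type at 22.2, 25.2 and 43.9 CPM on normal salt and at 21.2, 23.5 and 47.7 CPM on high salt, so that the libraries numbered 3, low in the 79 genes, were the highest in Gabpa. Ppargc1a, the gene of PGC-1alpha, was low throughout, from 3.6 to 11.9 CPM. Members with the NRF1 letters had a median of 0.073 for high salt in wild type and members without them 0.090.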

How the data were processed

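Liver RNA selected for poly(A) was sequenced in 15 libraries. RSEM expected counts were deposited by the authors as one table of the series, and again with FPKM in a file of each library. The submitters' processing notes name Bowtie2 2.2.5, RSEM 1.2.8 and mm10. Neither annotation nor strandedness is given in the sources used here. The FPKM deposited by the authors are scaled by transcript length and library total, and count over FPKM gave the implied length. No sample column was left unmapped.

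Members and lists were chosen with earlier results of these data known. Expected counts were rounded. The 12 libraries of 4 groups entered one fit of group means in edgeR 4.0.16 (R 4.3.3; TMM, filterByExpr, robust quasi-likelihood F test), with Benjamini-Hochberg adjustment over 13051 genes and a threshold of 0.05. For the additional set, 15 libraries and 13864 genes were fitted. The scripts were tested on simulated data. CPM of single libraries, their means and SDs use TMM over all 15 libraries, and errors of log2 fold changes are standard errors. No test was made over the set of members.

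Genes were named by rule: members past the threshold, the 3 higher and 3 lower with the smallest p in each comparison, the 2 highest and the lowest in FPKM of each complex, tissue isoforms, core and SIRT3-bound subunits, and rows that are no chain subunit. Cox5a and genes named for their spread or non-overlapping groups were added after their values were seen, as were the other members of the promoter search. Alternatives were DESeq2 1.42.0, limma 3.58.1, other scalings, filters and pseudocounts, length offsets, a replicate block, and fits without single libraries. Fits without the 4 titled libraries lowest in summed FPKM, with summed FPKM as a covariate, the difference between the wild-type sets and the length classes were added after seeing the data.

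Each member had between 313 and 272981 counts in all, and counting error limits Cox7a1, Ndufa4l2, Atp5s and Ndufb4c the most. One member is counted in every total but is not reported here by itself.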

Additional observations from a re-analysis of the deposited data

How the results depend on the processing

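Of 384 recalculated counts and medians over the 79 genes, 382 kept within 1.5 times the count or within 0.27, the pooled SD of library medians, and 2 moved. The medians of the 7 main comparisons lay between -0.039 and 0.083. A median could thus change sign within that limit, and the 382 do not show that signs were stable. The median for high salt in wild type turned to -0.19 with all 9 wild-type libraries and the set as a covariate, and the members called on normal salt between genotypes went from 0 to 1 (Atp5s) with summed FPKM as a covariate. The cause was not tested. Of 1137 recalculated values of single named genes, 28 moved and 1, Atp5s, passed the threshold.

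Without single libraries the median ranged from -0.081 to 0.30 for salt in wild type, -0.018 to 0.14 for salt in the labelled knockout, -0.14 to 0.14 and -0.22 to 0.12 for genotype on normal and high salt, -0.22 to 0.14 for the difference of salt effects, 0.010 to 0.18 and -0.12 to 0.068 for the averages, and -0.997 to -0.59 in the additional set. Without the 4 titled libraries lowest in summed FPKM, genotype gave -0.12 on normal and -0.16 on high salt, and 67 and 74 of the 79 genes were below 0. The same 4 were also the titled libraries lowest in the median of the 79 genes. WT NSD 3 and WT HSD 3 stood at -0.35 and -0.37, KO NSD 3 and KO HSD 1 at 0.026 and -0.062. Leaving them out raises the wild-type level most, so this fit cannot decide on genotype. The share of all genes below 0 in it is not given here.

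Library totals in place of TMM moved the all-gene median of the difference of salt effects from -0.022 to -0.17, and that of the members from -0.039 to -0.18. Over all genes, calls between genotypes on normal salt were 54 in edgeR, 661 in DESeq2, 27 in limma-voom, 359 with the covariate, 175 with only both groups, 106 with all 15 libraries, 102 and 104 with limma on FPKM, 0 without KO NSD 1 and 3, and 5 to 420 without single libraries. Averaged over diets they were 114 in edgeR, 515 in DESeq2, 12 in limma-voom, 231 with the covariate, 58 with library totals, 62, 45 and 14 on FPKM, 8 without KO NSD 1 and 3, 10 without the 4 libraries, and 8 to 316 without single libraries. In the additional set DESeq2 called 30 against 3, and in the other comparisons, with 0 in edgeR, it called 9 to 50.

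Same-numbered libraries of different groups correlated by -0.23 to 0.46 (mean 0.040), and 4 of 12 were closest to their own number, so the numbers were not taken to pair samples. With the replicate number as a block, 0 members were called, the 7 medians were 0.071, 0.053, 0.030, 0.026, -0.024, 0.065 and 0.042 in the order above, and all-gene calls on normal salt were 98 against 54. Depth limits Cox7a1, Ndufa4l2 and Atp5s the most.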

Other observations

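Of 18 regulators of the nuclear subunit genes, 0 passed the adjusted threshold in edgeR. An unadjusted p under 0.05 was found for 2 of them for high salt in wild type (4.47% of all genes), 3 for salt averaged over genotypes (6.11%), 1 for genotype on normal salt (14.3%), 1 on high salt (4.62%), 1 averaged over diets (13.5%), 1 for the difference of salt effects (5.41%) and 2 in the additional set (12.1%). Ppargc1b, the gene of PGC-1beta, stood in wild type at 5.5, 6.5 and 5.4 CPM on normal salt and at 10.7, 15.5 and 5.6 CPM on high salt, a log2 fold change of 0.86 ± 0.38 (SE; edgeR adjusted p = 0.9997). Its libraries 1 and 2 on high salt were above every normal salt library, and library 3 overlapped them. Esrra differed by 0.48 ± 0.18 in the same comparison and by -0.76 ± 0.29 in the additional set (edgeR adjusted p = 0.9997 and 0.4116). For salt averaged over genotypes, Ppargc1b differed by 0.76 ± 0.27, Esrrg by -0.63 ± 0.25 and Perm1 by -0.90 ± 0.37, and in the additional set Esrrg differed by 1.96 ± 0.62. Pprc1 differed by -0.74 ± 0.28 between genotypes on high salt. Yy1 in the labelled knockout against wild type, averaged over diets, differed by -0.42 ± 0.15 (edgeR adjusted p = 0.2343), and its values were highest in WT NSD 3 and WT HSD 3, at 37.8 and 41.7 CPM. Tfam, which packs and transcribes mitochondrial DNA, ranged from 23.5 to 34.8 CPM over the 15 libraries.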
